A study of Mus musculus with 12 samples.

Results

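The genes described here are 30 genes of cholesterol and fatty acid synthesis, of the sensing and transport of sterols, and of lipid export. They were taken by gene symbol from a named list and make up 30 of the 37614 mouse genes counted. No cut on a measured value was used, but the list was chosen with earlier results of these data known. Of these genes 15711 were tested, and all 30 listed genes were among them. The list holds 7 genes of the mevalonate and isoprenoid steps, 11 of the squalene and sterol steps, 4 of sterol sensing and transport, 5 of fatty acid synthesis and desaturation, and 3 of lipid export (Abca1, Abcg1 and Apoe) that serve as a contrast. RNA was sequenced in 12 libraries of sorted mouse blood-forming cells, with 3 libraries in each of 4 groups. HSC, haematopoietic stem cells, were sorted as Lin-, Sca1+, ckit+, CD48- and CD150+. PreGM, precursors of granulocytes and macrophages, were sorted as Lin-, Sca1-, ckit+ and negative for CD150, CD105, CD41 and CD16/32. Each type came from C57bl/6 WT mice or from a strain labelled Col1a1-MLL/ENL. The fusion protein MLL-ENL is found in acute leukaemias. All 12 libraries, those of WT included, are from cells held in culture 48 h, with 1 µg/ml doxycycline and 10% serum, 10-50 ng/ml SCF, 5 ng/ml IL3 and 5 ng/ml G-CSF. The MLL-ENL strain was not sequenced without doxycycline in the samples used here, so induction of the fusion and any other difference between the strains cannot be told apart. The labels give neither the age of the mice nor whether replicates came from separate animals, so each p-value reflects the spread among the libraries and no more, and that spread could be technical.

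Cells make cholesterol from acetyl-CoA through mevalonate, which is turned into isoprenoid diphosphates, then into squalene, and then by a chain of oxidations, demethylations and reductions into cholesterol. The isoprenoid branch also supplies protein prenylation, dolichol and ubiquinone. SREBP transcription factors, encoded by Srebf1 and Srebf2, are held in the endoplasmic reticulum with INSIG proteins when sterols are plentiful and switch on the synthesis genes when sterols are scarce, whereas LXR receptors respond to oxysterols and switch on the export genes Abca1, Abcg1 and Apoe.

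Levels are given as CPM, gene counts scaled to a common depth after TMM scaling, in the order of replicates 1, 2 and 3. HSC libraries were shallower than preGM libraries: gene counts summed to 14529767 to 18158165 (WT) and 18980508 to 23453501 (MLL-ENL) per HSC library, and to 34741936 to 44493485 (WT) and 38466380 to 50326122 (MLL-ENL) per preGM library. The summed level of 11 stem cell markers was 644 to 736 and 951 to 1041 CPM in WT and MLL-ENL HSC and 48.2 to 59.4 and 93.2 to 222 CPM in WT and MLL-ENL preGM. That of 10 granulocyte and monocyte precursor markers was 297 to 433, 243 to 280.2, 27392 to 30197 and 12756 to 16209.8 CPM in the same order, so the markers followed the sorted cell types. Counts in introns per 100 in exons were 3.71 to 4.10, 4.79 to 5.95, 1.24 to 2.01 and 1.49 to 3.50, and mitochondrial genes took 5.40 to 5.92%, 6.32 to 6.70%, 2.71 to 4.09% and 1.83 to 3.12% of gene counts, and the part of either in the results was not tested. A pair of preGM libraries stood apart in how reads lay along genes. The median share of a gene's counts in its 3′-most exon, over 6650 genes with 5 or more exons, was 53.7% in WT preGM replicate 2 against 44.6% and 44.9% in replicates 1 and 3, and 37.2% in MLL-ENL preGM replicate 1 against 47.8% and 46.4%. It was 53.98 to 57.8% in WT HSC and 49.4 to 53.8% in MLL-ENL HSC. Counts of called genes are therefore given with and without those 2 preGM libraries.

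Upstream sequences of 4 synthesis or control genes and of Apoe are printed to show the elements that the synthesis genes are known for. They are RefSeq sequences on the GRCm38.p6 build, read 5′ to 3′ on the gene's strand and ending before the annotated gene start. Capitals mark, on either strand, the sterol regulatory element form TCACNCCAC (bound by SREBP), CCAAT (bound by NF-Y), GGGCGG (bound by Sp1) and the E-box CACGTG. The windows are chr13:119690101-119690350 (plus strand) for Hmgcs1, chr8:122443423-122443672 (minus strand) for Mvd, chr5:28071162-28071362 (plus strand) for Insig1, chr11:120824548-120824797 (minus strand) for Fasn and chr7:19699189-19699438 (minus strand) for Apoe.
Hmgcs1: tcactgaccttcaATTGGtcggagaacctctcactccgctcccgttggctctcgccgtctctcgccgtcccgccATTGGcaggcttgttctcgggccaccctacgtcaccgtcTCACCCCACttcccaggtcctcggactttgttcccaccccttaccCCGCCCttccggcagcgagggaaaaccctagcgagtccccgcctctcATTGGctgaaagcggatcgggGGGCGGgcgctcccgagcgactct
Mvd: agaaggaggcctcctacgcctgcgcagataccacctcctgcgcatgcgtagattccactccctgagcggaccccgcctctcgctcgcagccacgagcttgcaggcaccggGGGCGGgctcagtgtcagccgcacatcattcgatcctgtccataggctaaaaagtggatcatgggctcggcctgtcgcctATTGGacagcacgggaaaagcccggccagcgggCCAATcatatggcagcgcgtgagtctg
Insig1: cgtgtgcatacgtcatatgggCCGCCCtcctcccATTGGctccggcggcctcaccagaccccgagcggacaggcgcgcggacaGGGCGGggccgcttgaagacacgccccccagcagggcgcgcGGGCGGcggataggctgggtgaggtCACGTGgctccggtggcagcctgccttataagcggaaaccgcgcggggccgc
Fasn: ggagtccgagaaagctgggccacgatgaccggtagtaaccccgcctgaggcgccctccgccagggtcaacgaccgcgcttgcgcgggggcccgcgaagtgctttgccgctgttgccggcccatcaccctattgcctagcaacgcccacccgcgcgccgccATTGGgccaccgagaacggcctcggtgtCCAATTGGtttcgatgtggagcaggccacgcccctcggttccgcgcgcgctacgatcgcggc
Apoe: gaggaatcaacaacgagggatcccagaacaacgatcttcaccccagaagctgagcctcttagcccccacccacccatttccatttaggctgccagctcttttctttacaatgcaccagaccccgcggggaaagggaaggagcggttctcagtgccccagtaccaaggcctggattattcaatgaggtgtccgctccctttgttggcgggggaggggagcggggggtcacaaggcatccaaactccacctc
RefSeq windows were matched for 23 of the 30 genes, with 30 windows of 250 bases before a RefSeq start, since some genes have several starts. The printed Insig1 sequence is the part of its window, 201 bases, that lies before the GENCODE gene. Among those windows, 1 (3.33%) held TCACNCCAC, that of Hmgcs1, against 1.05% of all 32851 windows searched. Windows of 1 chromosome were left out of the search. CCAAT was in 19 (63.3%) against 33.8% of all, GGGCGG in 21 of the 30 against 32.7%, and CACGTG in 5 (16.7%) against 6.02%. Overlapping matches were each counted, as in the CCAATTGG of Fasn. The printed Apoe window held none of these letters. It does not stand for the export genes: the Abca1 window held 1 CACGTG and 2 GGGCGG, and Abcg1 was not matched. The window of the synthesis gene Acaca also held none of the motifs. A match is a description of the sequence, and binding was not measured.

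The largest differences among the 30 genes lay between the cell types. In WT cells 17 genes were higher in preGM than in HSC and 3 were lower, at an adjusted p under 0.05, where 38.5% of all tested genes were called in either direction, 18.4% higher and 20.1% lower. With MLL-ENL, 17 were higher and 3 lower in preGM, against 41.5% of all genes in either direction, 20.4% higher and 21.1% lower. The 17 higher genes were all synthesis or control genes in both strains, and 13 of them (76.5% of each list) were the same. All 3 export genes were lower in WT preGM. The median log2 change over the 27 synthesis and control genes was 0.94 in WT and 1.18 with MLL-ENL, against medians of -0.03 and 0.00 over all tested genes. In such bulk RNA, fewer cells of a type and less RNA per cell cannot be told apart.

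These counts depend on the scaling. Without TMM, by library size alone, the median of all tested genes moved by -0.70 in WT and by -0.56 with MLL-ENL. The share of higher genes among all calls then moved from 47.8% to 16.2% in WT and from 49.1% to 18.1% with MLL-ENL. On that scale 1190 of the 15711 tested genes were called higher and 6149 lower in WT preGM, and 1218 higher and 5515 lower with MLL-ENL. Of the 30 genes 6 were called higher and 4 lower in WT preGM (Pmvk, Mvd, Fdps, Ebp, Scd1 and Scd2 against Srebf2, Abca1, Abcg1 and Apoe). With MLL-ENL 5 were called higher and 5 lower (Mvd, Fdps, Ebp, Fasn and Scd2 against Stard4, Srebf2 and the 3 export genes). The median over the 27 synthesis and control genes stayed positive, at 0.28 and 0.58, with 18 and 21 of 27 changes above 0. No gene called on either scale had the opposite sign on the other. Changes below are relative to the median gene, on the TMM scale. Without the 2 preGM libraries that stood apart, 21 genes were called higher and 3 lower in WT, and 19 higher and 4 lower with MLL-ENL. The share of all tested genes called in that setting is not given beside these counts, so no excess can be read from them. The median over the 27 synthesis and control genes was then 1.25 in WT and 0.80 with MLL-ENL, so the order of the strains turned. From the last exon alone it was 0.92 and 1.06, and without those libraries 1.12 and 0.65.

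**Figure D1:**
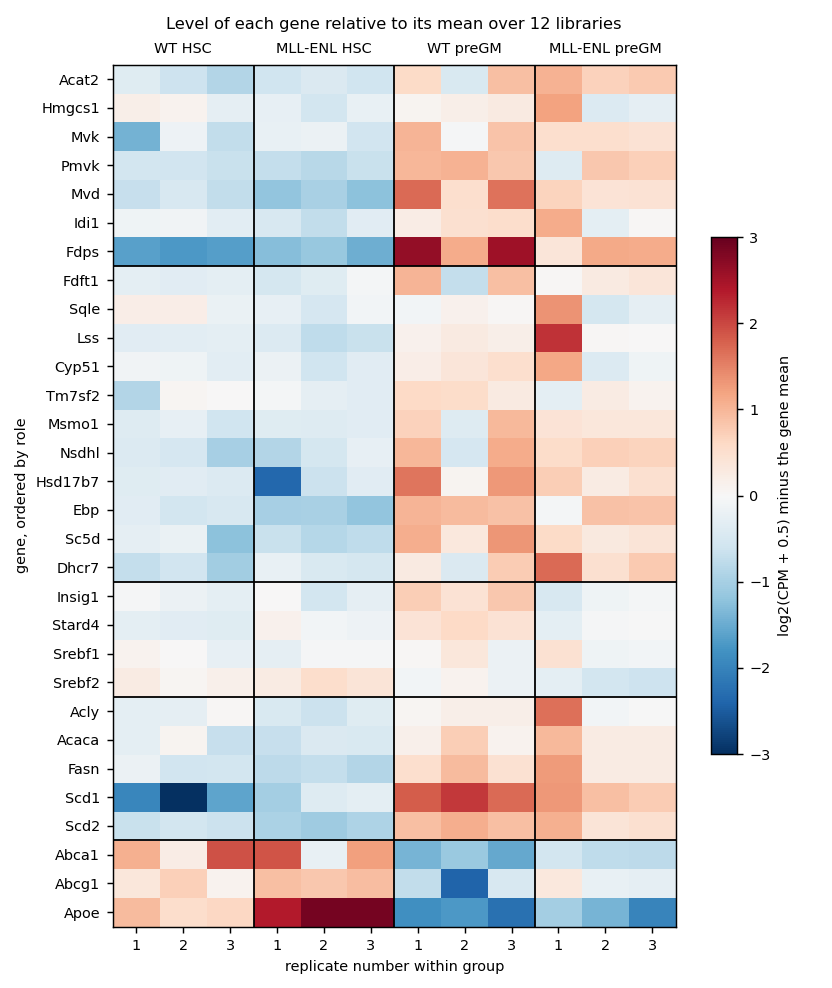
Level of each of the 30 genes in each of the 12 libraries, as log2(CPM + 0.5) minus the gene's mean over all libraries, with genes in rows by role and libraries in columns by group. Most synthesis genes are above their mean in preGM columns and below it in HSC columns, the 3 export genes in the bottom rows are the reverse except Abca1 in MLL-ENL HSC replicate 2 (-0.21) and Abcg1 in MLL-ENL preGM replicate 1 (0.31), and MLL-ENL preGM replicate 1 and WT preGM replicate 2 differ from the other replicates of their groups. By library size alone 6 of the 30 genes are called higher in preGM of WT, and 5 with MLL-ENL.

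Among the 7 genes of the mevalonate and isoprenoid steps, 5 rose from HSC to preGM in WT and 5 with MLL-ENL in edgeR, and none fell (lower in WT and with MLL-ENL: 0 and 0 at an unadjusted p under 0.05, 0 and 0 in DESeq2). Fdps (ENSMUSG00000059743, chr3:89093588-89101959 on the minus strand, in GRCm38 as for all genes here), which makes farnesyl diphosphate at the branch between sterols and prenylation, had 56.7, 53.3 and 55.4 CPM in WT HSC, 72.1, 79.2 and 63.1 in MLL-ENL HSC, 1096, 381 and 1021 in WT preGM and 226, 385 and 380.3 in MLL-ENL preGM. Every preGM library lay above every HSC library of its strain, and WT preGM replicate 2 had less than WT replicates 1 and 3. The log2 change from HSC to preGM was 3.92 ± 0.39 (adjusted p = 1.23e-06) in WT and 2.21 ± 0.36 (adjusted p = 0.000195) with MLL-ENL. Mvd, which decarboxylates mevalonate diphosphate to isopentenyl diphosphate, had 13.2, 15.4 and 12.7 CPM in WT HSC, 9.27, 10.8 and 8.91 in MLL-ENL HSC, 71.6, 30.7 and 67.7 in WT preGM and 34.8, 28.8 and 29.4 in MLL-ENL preGM. Its change was 2.04 ± 0.29 (adjusted p = 4.53e-05) in WT and 1.68 ± 0.28 (adjusted p = 0.00026) with MLL-ENL, with no overlap of the cell types. Pmvk, the kinase before Mvd, had 53.6, 53.4 and 49.8 CPM in WT HSC, 48.4, 44.5 and 49.97 in MLL-ENL HSC, 159.9, 163 and 139 in WT preGM and 61.05, 139 and 130.3 in MLL-ENL preGM. Again no preGM library overlapped HSC, MLL-ENL preGM replicate 1 was the lowest of preGM, and the changes were 1.56 ± 0.28 (adjusted p = 0.000382) and 1.21 ± 0.27 (adjusted p = 0.0025).

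Acat2, the thiolase that joins acetyl-CoA units at the start of the pathway, had 46.4, 38.7 and 32.4 CPM in WT HSC, 39.2, 44.1 and 39.4 in MLL-ENL HSC, 88.96, 43.3 and 113 in WT preGM and 124, 96.9 and 103 in MLL-ENL preGM. WT preGM replicate 2 lay within the range of WT HSC, whereas with MLL-ENL the cell types did not overlap. The changes were 1.06 ± 0.29 (adjusted p = 0.0097) in WT and 1.40 ± 0.30 (adjusted p = 0.00162) with MLL-ENL, and the WT call failed on leaving out replicate 3 of WT preGM (0.77, adjusted p = 0.0641). Mvk, mevalonate kinase, had 6.20, 15.7 and 10.2 CPM in WT HSC, 14.9, 15.4 and 11.6 in MLL-ENL HSC, 36.1, 17.2 and 32.2 in WT preGM and 24.8, 25.2 and 23.7 in MLL-ENL preGM. It rose in WT, by 1.41 ± 0.33 (adjusted p = 0.00311), and had a change of 0.81 ± 0.32 (adjusted p = 0.0524) with MLL-ENL, with no overlap of the cell types in either strain. Idi1, which isomerises isopentenyl diphosphate, had 50.2, 50.9 and 43.9 CPM in WT HSC, 39.2, 32.4 and 42.8 in MLL-ENL HSC, 63.9, 75.7 and 79.00 in WT preGM and 119, 44.7 and 55.9 in MLL-ENL preGM. Its change was 0.59 ± 0.30 (adjusted p = 0.133) in WT and 0.94 ± 0.30 (adjusted p = 0.0209) with MLL-ENL. The latter call rested on MLL-ENL preGM replicate 1, the highest Idi1 library: without it the change was 0.41 (adjusted p = 0.0966), and it also failed on leaving out either replicate 1 or replicate 2 of MLL-ENL HSC (adjusted p = 0.0583 and 0.0874). Hmgcs1, which makes HMG-CoA, was not called in any comparison. Its libraries ranged from 27.9 to 96.2 CPM, with the highest value in MLL-ENL preGM replicate 1.

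Of the 11 genes of the squalene and sterol steps, 7 rose from HSC to preGM in WT and 7 with MLL-ENL in edgeR, and none fell (lower: 0 and 0 unadjusted, 0 and 0 in DESeq2). Ebp, an isomerase of the sterol ring double bond, had 121, 105 and 109.5 CPM in WT HSC, 77.2, 78.3 and 67.9 in MLL-ENL HSC, 312, 297 and 285 in WT preGM and 149, 282 and 277 in MLL-ENL preGM. All preGM libraries exceeded the HSC libraries of their strain, MLL-ENL preGM replicate 1 being the lowest of them, with changes of 1.42 ± 0.26 (adjusted p = 0.000557) in WT and 1.66 ± 0.26 (adjusted p = 0.000156) with MLL-ENL. Sc5d, a sterol desaturase, had 30.6, 31.98 and 15.4 CPM in WT HSC, 23.2, 20.3 and 21.5 in MLL-ENL HSC, 79.8, 46.4 and 93.03 in WT preGM and 55.5, 45.7 and 48.7 in MLL-ENL preGM. The cell types did not overlap, and the changes were 1.49 ± 0.30 (adjusted p = 0.00104) and 1.20 ± 0.29 (adjusted p = 0.00436). Dhcr7, the reductase of the last step to cholesterol, had 20.9, 23.01 and 16.7 CPM in WT HSC, 29.6, 25.2 and 23.8 in MLL-ENL HSC, 41.9, 25.7 and 59.3 in WT preGM and 113, 48.7 and 59.8 in MLL-ENL preGM. The changes were 1.07 ± 0.33 (adjusted p = 0.0184) in WT, with WT preGM replicate 2 closest to HSC, and 1.50 ± 0.33 (adjusted p = 0.00227) with MLL-ENL, without overlap. The WT call of Dhcr7 failed on leaving out replicate 3 of either WT group (adjusted p = 0.0662 and 0.11).

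Nsdhl, a dehydrogenase that removes a carboxyl group during demethylation, had 34.3, 32.2 and 22.8 CPM in WT HSC, 24.5, 31.8 and 38.7 in MLL-ENL HSC, 91.4, 32.3 and 99.8 in WT preGM and 66.6, 75.6 and 72.9 in MLL-ENL preGM. WT preGM replicate 2 lay within the WT HSC range. The change was 1.33 ± 0.34 (adjusted p = 0.00621) in WT and 1.18 ± 0.34 (adjusted p = 0.0114) with MLL-ENL, where the call failed on leaving out replicate 1 of MLL-ENL HSC (adjusted p = 0.0606). Msmo1, the methylsterol oxidase of the same demethylation, had 62.9, 68.8 and 54.1 CPM in WT HSC, 63.1, 62.02 and 64.2 in MLL-ENL HSC, 132, 62.9 and 161 in WT preGM and 108, 103 and 103 in MLL-ENL preGM. Its changes were 0.94 ± 0.28 (adjusted p = 0.0156) in WT and 0.73 ± 0.28 (adjusted p = 0.0471) with MLL-ENL. Leaving out WT HSC replicate 3 or WT preGM replicate 1 or 3 ended the WT call (adjusted p up to 0.0948), and leaving out any of 10 of the 12 libraries, all but WT preGM replicates 2 and 3, ended that with MLL-ENL (adjusted p up to 0.119). Hsd17b7, a sterol ketone reductase, had 7.38, 7.47 and 7.08 CPM in WT HSC, 1.46, 5.93 and 7.39 in MLL-ENL HSC, 30.1, 10.1 and 24.1 in WT preGM and 16.3, 11.4 and 13.5 in MLL-ENL preGM. MLL-ENL HSC replicate 1, with 46 counts, was the lowest library. The changes were 1.55 ± 0.46 (adjusted p = 0.0145) in WT, not called without WT preGM replicate 1 (adjusted p = 0.0767), and 1.49 ± 0.46 (adjusted p = 0.0175) with MLL-ENL, not called without MLL-ENL HSC replicate 1 (adjusted p = 0.052).

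Fdft1, squalene synthase, shared 26.8% of its exon bases with another gene and had 41.4, 39.99 and 41.1 CPM in WT HSC, 35.04, 39.05 and 48.3 in MLL-ENL HSC, 104, 30.5 and 95.3 in WT preGM and 52.2, 60.7 and 65.4 in MLL-ENL preGM. WT preGM replicate 2 was below all WT HSC libraries. The WT change of 0.91 ± 0.34 (adjusted p = 0.0429) lost its call when any of 9 libraries was left out (adjusted p 0.0501 to 0.204), namely all 6 HSC libraries, WT preGM replicates 1 and 3 and MLL-ENL preGM replicate 3, and the change with MLL-ENL was 0.54 ± 0.33 (adjusted p = 0.206). Lss, which closes the rings to lanosterol, had 16.3, 16.4 and 16.7 CPM in WT HSC, 15.4, 12.1 and 12.7 in MLL-ENL HSC, 22.8, 24.9 and 23.4 in WT preGM and 93.7, 20.99 and 20.9 in MLL-ENL preGM. It rose with MLL-ENL, by 1.76 ± 0.44 (adjusted p = 0.0049), where replicate 1 was more than 4 times replicates 2 and 3 and without which the change was 0.65 (adjusted p = 0.00905), and had a change of 0.52 ± 0.43 (adjusted p = 0.36) in WT. Sqle (squalene epoxidase), Cyp51 (lanosterol demethylase) and Tm7sf2 (a sterol reductase) were not called in any comparison. Sqle ranged from 29.99 to 111 CPM, Cyp51 from 29.3 to 100.1 CPM and Tm7sf2 from 7.38 to 21.3 CPM. For Sqle and Cyp51 the highest library was MLL-ENL preGM replicate 1.

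The 4 genes of sterol sensing and transport did not move together: 2 rose in WT preGM, and with MLL-ENL 1 fell and none rose in edgeR (0 at an unadjusted p under 0.05, 0 in DESeq2). The median change of the 4 in WT was 0.46 and turned to -0.26 by library size alone. Insig1 (ENSMUSG00000045294, chr5:28071363-28078662 on the plus strand), an anchor of SREBP that SREBP itself induces, had 63.8, 57.3 and 52.8 CPM in WT HSC, 65.9, 44.3 and 53.5 in MLL-ENL HSC, 108, 88.2 and 114 in WT preGM and 46.8, 59.3 and 62.3 in MLL-ENL preGM. The 3 WT preGM libraries lay above the other 9. Its change from HSC to preGM was 0.84 ± 0.23 (adjusted p = 0.0086) in WT and 0.04 ± 0.23 (adjusted p = 0.9) with MLL-ENL. Stard4, a carrier of cholesterol between membranes, had 59.3, 57.98 and 56.9 CPM in WT HSC, 79.9, 68.98 and 65.3 in MLL-ENL HSC, 97.1, 110.00 and 98.2 in WT preGM and 59.5, 71.5 and 71.8 in MLL-ENL preGM. It likewise was highest in the 3 WT preGM libraries, with changes of 0.81 ± 0.20 (adjusted p = 0.00524) in WT and -0.08 ± 0.20 (adjusted p = 0.776) with MLL-ENL. Srebf2, the SREBP gene tied most to sterol synthesis, had 28.00, 24.8 and 26.4 CPM in WT HSC, 28.2, 34.2 and 31.3 in MLL-ENL HSC, 22.2, 25.5 and 21.03 in WT preGM and 19.1, 15.9 and 15.2 in MLL-ENL preGM. It fell from HSC to preGM with MLL-ENL, with a change of -0.90 ± 0.20 (adjusted p = 0.00258), without overlap, and its WT change was -0.21 ± 0.20 (adjusted p = 0.45). Srebf1, which acts more on fatty acid synthesis, was not called in any comparison and ranged from 20.9 to 34.5 CPM. Its 3 counted exons nearest the 5′ end each held 0 to 19 counts in a library, and its isoforms were not separated.

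All 5 genes of fatty acid synthesis and desaturation rose from HSC to preGM with MLL-ENL, and 3 did in WT. Scd1 (ENSMUSG00000037071, chr19:44394455-44407879 on the minus strand), a desaturase that makes monounsaturated fatty acids, had 1.45, 0.272 and 2.03 CPM in WT HSC, 3.26, 5.33 and 5.69 in MLL-ENL HSC, 26.2, 32.6 and 24.3 in WT preGM and 18.2, 13.8 and 12.3 in MLL-ENL preGM. The 4 groups did not overlap, in the order WT HSC, MLL-ENL HSC, MLL-ENL preGM and WT preGM. The change to preGM was 4.50 ± 0.48 (adjusted p = 2.79e-06) in WT, the largest rise of the 30 genes, and 1.63 ± 0.41 (adjusted p = 0.00509) with MLL-ENL. Counts of Scd1 in WT HSC were 26, 6 and 33, so the size of the WT change rests on few reads. Scd2, a second enzyme of this kind, had 121, 131 and 122 CPM in WT HSC, 100.02, 90.8 and 100.3 in MLL-ENL HSC, 358, 409.98 and 359 in WT preGM and 402, 252 and 267 in MLL-ENL preGM. No preGM library overlapped HSC, and the changes were 1.59 ± 0.25 (adjusted p = 0.000111) and 1.66 ± 0.25 (adjusted p = 8.90e-05).

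Fasn, fatty acid synthase, had 47.3, 36.2 and 36.5 CPM in WT HSC, 30.9, 32.5 and 29.00 in MLL-ENL HSC, 75.9, 105 and 74.2 in WT preGM and 131, 64.2 and 63.3 in MLL-ENL preGM. Its changes were 1.09 ± 0.28 (adjusted p = 0.00695) in WT and 1.48 ± 0.29 (adjusted p = 0.000803) with MLL-ENL, without overlap. Acly, which makes cytosolic acetyl-CoA from citrate, had 79.5, 80.8 and 98.6 CPM in WT HSC, 70.7, 61.6 and 75.9 in MLL-ENL HSC, 101, 110.05 and 110.1 in WT preGM and 305, 91.8 and 96.2 in MLL-ENL preGM. MLL-ENL preGM replicate 1 had more than 3 times the level of replicates 2 and 3. The change was 0.31 ± 0.36 (adjusted p = 0.53) in WT and 1.25 ± 0.37 (adjusted p = 0.0132) with MLL-ENL, and the latter was 0.44 (adjusted p = 0.0546) without that library and was not called without MLL-ENL HSC replicate 2 either (adjusted p = 0.0566). Acaca, acetyl-CoA carboxylase, had 21.3, 27.9 and 16.1 CPM in WT HSC, 15.98, 19.5 and 18.99 in MLL-ENL HSC, 29.3, 44.4 and 28.3 in WT preGM and 52.2, 31.4 and 31.5 in MLL-ENL preGM. It rose with MLL-ENL, by 1.08 ± 0.28 (adjusted p = 0.00602), and had a change of 0.64 ± 0.28 (adjusted p = 0.0803) in WT, with no overlap in either strain.

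The lipid export genes ran the other way: all 3 fell from HSC to preGM in WT, and Abca1 and Apoe did with MLL-ENL. Apoe (ENSMUSG00000002985, chr7:19696109-19699188 on the minus strand), a lipid-carrying apolipoprotein, had 7.54, 5.48 and 5.84 CPM in WT HSC, 20.9, 29.6 and 29.5 in MLL-ENL HSC, 0.657, 0.745 and 0.370 in WT preGM and 1.54, 1.07 and 0.552 in MLL-ENL preGM. All preGM libraries lay below all HSC libraries, and the change was -3.43 ± 0.39 (adjusted p = 6.26e-06) in WT and -4.63 ± 0.39 (adjusted p = 3.12e-07) with MLL-ENL. Abca1, a pump that loads cholesterol onto apolipoproteins, had 3.91, 1.95 and 7.45 CPM in WT HSC, 7.28, 1.31 and 4.46 in MLL-ENL HSC, 0.298, 0.466 and 0.228 in WT preGM and 0.941, 0.747 and 0.718 in MLL-ENL preGM. Its preGM libraries held 8 to 50 counts, with changes of -3.76 ± 0.66 (adjusted p = 0.000349) and -2.43 ± 0.59 (adjusted p = 0.00417) and no overlap of the cell types. They were -3.14 (adjusted p = 0.00179) without WT HSC replicate 3 and -1.84 (adjusted p = 0.0328) without MLL-ENL HSC replicate 1. Abcg1, a pump that moves cholesterol to lipoproteins, had 99.1, 129 and 84.05 CPM in WT HSC, 146, 138 and 148 in MLL-ENL HSC, 46.8, 14.5 and 56.1 in WT preGM and 97.04, 67.1 and 65.2 in MLL-ENL preGM. WT preGM replicate 2 was the lowest library, and the change was -1.41 ± 0.37 (adjusted p = 0.00727) in WT and -0.91 ± 0.37 (adjusted p = 0.0564) with MLL-ENL.

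**Figure D2:**
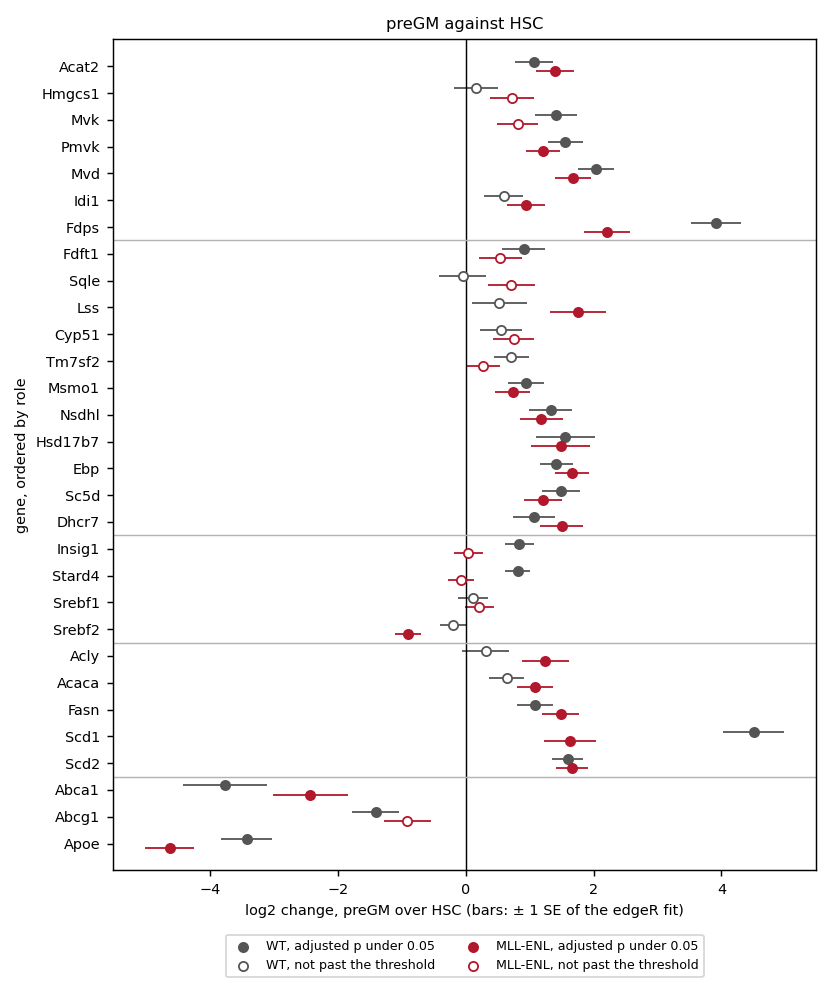
Log2 change from HSC to preGM of each of the 30 genes in WT (grey) and MLL-ENL (red) on the TMM scale, with bars of ± 1 SE of the edgeR fit and filled points for adjusted p under 0.05. Most synthesis genes lie to the right of 0 and the 3 export genes to the left, Fdps (3.92) and Scd1 (4.50) in WT lie farthest right, and library size alone moves the median of all genes by -0.70 in WT and -0.56 with MLL-ENL.

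Calls between the cell types were also set against 24 other settings (scalings, filters, tools, libraries left out). In WT 9 of the 20 calls (Pmvk, Mvd, Fdps, Ebp, Scd1, Scd2, Abca1, Abcg1 and Apoe) were kept in every one, and with MLL-ENL 8 of 20 (Mvd, Fdps, Ebp, Srebf2, Fasn, Scd2, Abca1 and Apoe). Proliferation markers, 8 genes in sum, were at 1670.05 to 1743 CPM in HSC and 1683 to 2246 CPM in preGM of WT, and at 1118 to 1238 and 2155 to 2896 CPM with MLL-ENL. Between WT HSC and WT preGM these ranges overlapped, and with MLL-ENL they did not. Their part in the results was not tested.

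In HSC, MLL-ENL against WT changed few of the 30 genes. Apoe and Scd1 rose and none fell in edgeR, where 4.12% of all tested genes were called, 3.19% higher and 0.929% lower. Lower genes among the 30 numbered 1 at an unadjusted p under 0.05 and 0 in DESeq2. Apoe was at 7.54, 5.48 and 5.84 CPM in WT and 20.9, 29.6 and 29.5 CPM in MLL-ENL HSC, without overlap, a log2 change of 2.08 ± 0.34 (adjusted p = 0.00257). This call was kept in all 24 other settings (adjusted p up to 0.0187). Scd1 was at 1.45, 0.272 and 2.03 CPM (26, 6 and 33 counts) in WT and 3.26, 5.33 and 5.69 CPM (103, 134 and 161 counts) in MLL-ENL HSC, a change of 1.96 ± 0.46 (adjusted p = 0.0236). Scd1 no longer passed on leaving out replicate 1 of WT HSC (adjusted p = 0.058), or replicate 2 or 3 of MLL-ENL HSC (0.0828 and 0.0861). The other 28 genes had changes between -0.59 and 0.47, and the median over the 27 synthesis and control genes was -0.13 (0.06 by library size alone, which moved the median of all genes by 0.19), against 0.02 over all genes.

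Macrophages make much Apoe, so macrophage markers are given beside it. The summed level of 10 such markers was 20.8 to 33.4 CPM in WT HSC and 30.5 to 44.4 CPM in MLL-ENL HSC, and 165 to 236 and 74.95 to 132 CPM in WT and MLL-ENL preGM, where Apoe was lower. C1qa was at 0 in all 6 HSC libraries, and in WT HSC 6 of the 10 were at 0 (Adgre1, C1qa, C1qb, Vcam1, Timd4 and Marco). In MLL-ENL HSC only 1 of the 10, C1qa, was at 0 in every library, and each other marker had counts in at least 1 library. Adgre1 was at 0, 0.0400 and 0.142 CPM in MLL-ENL HSC. Summed markers of other lineages also moved between WT and MLL-ENL HSC: 6 megakaryocyte and platelet genes were at 551 to 691 and 194 to 241 CPM, 6 erythroid genes at 86.3 to 111 and 25.5 to 31.3 CPM, and 7 stromal and endothelial genes at 16.2 to 18.6 and 31.7 to 33.1 CPM. The 6 lymphoid genes summed to 2.45 to 4.25 and 0.141 to 0.380 CPM. The part of these cell types in the HSC results was not tested. Without the 2 preGM libraries, whose spread enters the shared error estimate, 4 genes were called higher (Fdps, Scd1, Abcg1 and Apoe) and 4 lower (Mvd, Ebp, Fasn and Scd2) in HSC. The count over all genes, otherwise 647, was then 3369.

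In preGM, Fdps and Insig1 were lower with MLL-ENL and none of the 30 genes was higher in edgeR, where 6.77% of all tested genes were called, 3.7% higher and 3.07% lower. Higher genes among the 30 numbered 4 at an unadjusted p under 0.05 and 0 in DESeq2. Fdps was at 1096, 381 and 1021 CPM in WT and 226, 385 and 380.3 CPM in MLL-ENL preGM, a change of -1.33 ± 0.35 (adjusted p = 0.0295). WT replicate 2 overlapped the MLL-ENL libraries. Insig1 was at 108, 88.2 and 114 CPM in WT and 46.8, 59.3 and 62.3 CPM in MLL-ENL preGM without overlap, a change of -0.89 ± 0.23 (adjusted p = 0.027). Stard4 and Mvd, which did not pass, had changes of -0.59 ± 0.20 (adjusted p = 0.095) and -0.87 ± 0.27 (adjusted p = 0.0711). Libraries of the 2 strains also did not overlap for other uncalled genes. Among them were Stard4, Srebf2, Scd1, Ebp and Tm7sf2, lower with MLL-ENL, and Abca1 and Abcg1, higher. With 3 against 3 libraries an exact test cannot go below 0.1. The share of all tested genes without overlap was not counted, so no excess can be read from these. All 3 export genes had changes above 0 in preGM, 2 of them at an unadjusted p under 0.05 in edgeR, and none passed. Beside these, 6 mast cell, basophil and eosinophil genes summed to 1430.5 to 2457 CPM in WT and 180.1 to 281 CPM in MLL-ENL preGM, and the granulocyte and monocyte precursor genes were also lower with MLL-ENL, as given above, and the part of either in the preGM results was not tested.

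Neither preGM call held in every setting. Fdps lost its call in 10 of 24 settings and Insig1 in 8, with the change still negative in each. Leaving out replicate 1 or 3 of WT preGM, or replicate 1 of MLL-ENL preGM, gave adjusted p of 0.14, 0.0912 and 0.0956 for Fdps and 0.0967, 0.0833 and 0.0516 for Insig1. For Fdps the same held without MLL-ENL HSC replicate 1 (0.05002) or MLL-ENL preGM replicate 3 (0.0543). By library size alone, which moved the median of all genes by 0.32, the adjusted p was 0.073 for Fdps and 0.124 for Insig1, so none of the 30 genes was called. Over all tested genes 884 were then called higher and 296 lower, and the share of higher genes among all calls moved from 54.7% to 74.9%. Without the 2 preGM libraries that stood apart, 7 genes were called lower and none higher, with Fdps at -1.47 ± 0.12 (adjusted p = 2.21e-06), Insig1 at -0.87 ± 0.17 (adjusted p = 0.00507) and Mvd at -1.26 ± 0.16 (adjusted p = 0.000244). The other 4 were Fdft1, Cyp51, Msmo1 and Scd2. This setting has 1 library fewer in each preGM group, and it drops the WT library whose Fdps level lay with those of MLL-ENL. Fdps was low there in the last exon too, with 1067 counts against 3464 and 3665 in WT preGM replicates 1 and 3. The smaller adjusted p of Fdps thus comes with the removal of that library. The share of all tested genes called in that setting is not given beside the 7, so no excess can be read from them. Without WT preGM replicate 2 alone, 4 genes were called lower (Mvd, Fdps, Fdft1 and Insig1).

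**Figure D3:**
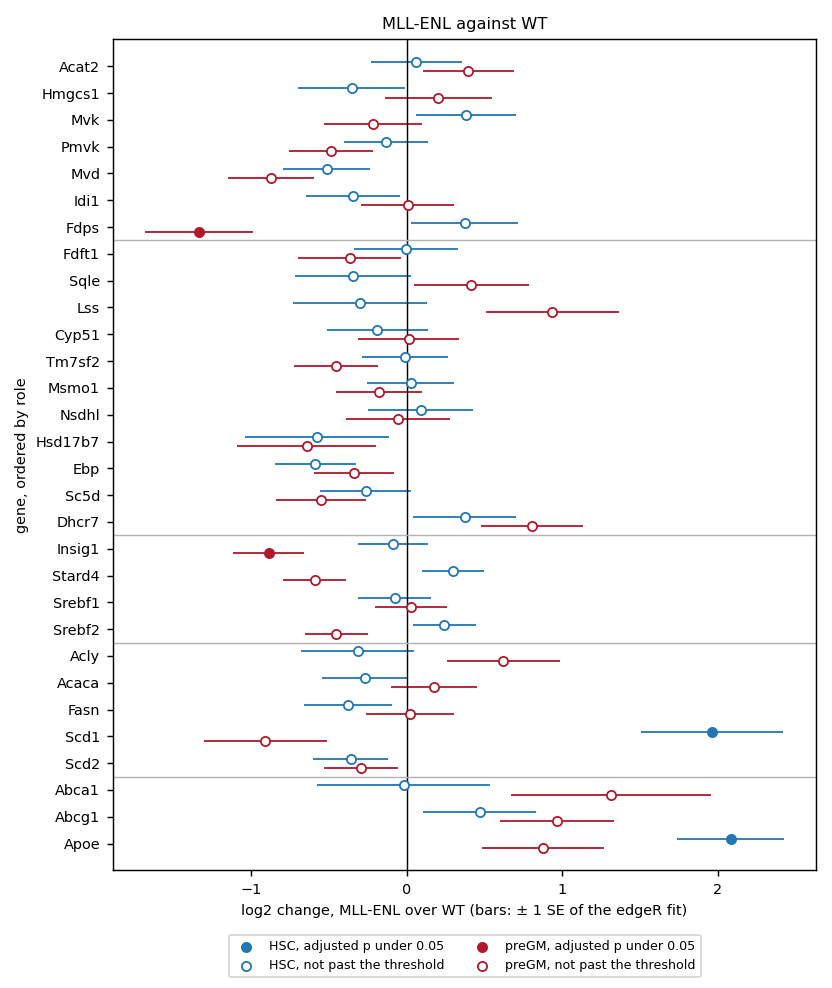
Log2 change with MLL-ENL against WT of each of the 30 genes in HSC (blue) and preGM (red), with bars of ± 1 SE of the edgeR fit and filled points for adjusted p under 0.05. Filled points are Scd1 (1.96) and Apoe (2.08) in HSC, to the right of 0, and Fdps (-1.33) and Insig1 (-0.89) in preGM, to the left. On library size alone the preGM points lose their calls.

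The response to MLL-ENL differed between the cell types for Scd1 alone among the 30 genes, where 3.13% of all tested genes had such a difference (1.08% above and 2.06% below 0). The preGM response of Scd1 minus its HSC response was -2.87 ± 0.61 (adjusted p = 0.014): it was 1.96 ± 0.46 in HSC and -0.91 ± 0.40 (adjusted p = 0.183) in preGM. The same contrast compares the HSC-to-preGM change with MLL-ENL and in WT, so no other of the 30 genes was shown to differ in its change between the strains. By library size alone the adjusted p for Scd1 was 0.0509. For Fdps the difference was -1.71 ± 0.49 (adjusted p = 0.0731), and without WT preGM replicate 2 it passed, at -2.06 (adjusted p = 0.00276). Insig1 and Stard4 had differences of -0.80 ± 0.32 (adjusted p = 0.217) and -0.89 ± 0.28 (adjusted p = 0.113). Apoe, called in HSC and not in preGM, had a difference of -1.21 ± 0.52 (adjusted p = 0.256). Without both preGM libraries that stood apart, 1 gene was called with a difference above 0 (Ebp) and 7 with one below 0. The 7 were Mvd, Fdps, Fdft1, Insig1, Stard4, Srebf2 and Scd1. Called or not, 7 of the 30 differences were then above 0 and 23 below. The share of all tested genes called in that setting is not given beside these counts, so no excess can be read from them.

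**Figure D4:**
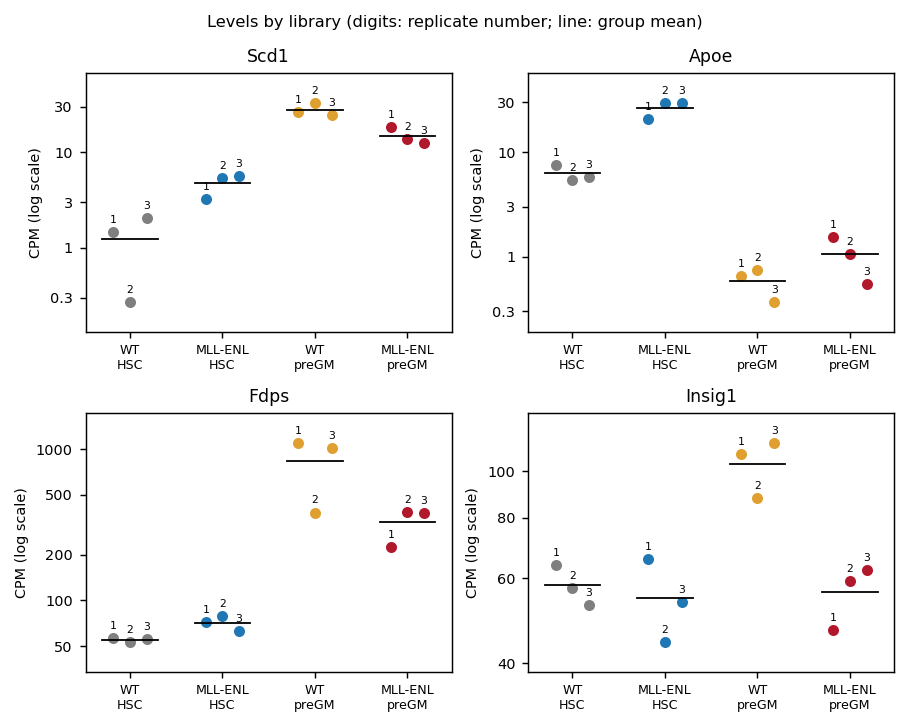
CPM of Scd1, Apoe, Fdps and Insig1 in each library on a log axis, with 3 points per group, digits for the replicate number and a line at the group mean. Scd1 rises from WT HSC to MLL-ENL HSC and is lower in MLL-ENL than WT preGM, Apoe is highest in MLL-ENL HSC, and Fdps and Insig1 are highest in WT preGM, where replicate 2 of Fdps (381 CPM) lies with the MLL-ENL libraries.

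How reads lay along the genes differed between libraries. Of the counts of Acly, 28.3, 72.7 and 68.9% lay in its 3′-most exon in MLL-ENL preGM and 71.3, 77.1 and 69.9% in WT preGM. For Fasn these shares were 29.9, 61.96 and 62.7% and 61.6, 59.6 and 60.6%, for Lss 28.9, 63.00 and 58.6% and 71.6, 70.97 and 64.8%, and for Insig1, nearly all of whose counts lie in its last exon, 96.7, 99.2 and 98.9% and 98.2, 96.8 and 98.9%. MLL-ENL preGM replicate 1 thus had the lowest share for Acly, Fasn and Lss. From the last exon alone, Acly was at 227, 154 and 155 CPM in MLL-ENL preGM and Fasn at 103, 91.7 and 93.1, so replicate 1 stood out less than with all exons. WT preGM replicate 2 had higher shares than replicates 1 and 3 in Acat2 (69.03, 90.9 and 67.1%), Nsdhl (54.6, 86.6 and 52.9%) and Fdft1 (37.1, 70.4 and 39.04%), where its level was low.

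The 30 genes were also tested from the last exon alone. In HSC Scd1, at 2.21 ± 0.45 (adjusted p = 0.00987), and Apoe, at 2.17 ± 0.35 (adjusted p = 0.00199), were higher. In preGM 4 were lower, namely Mvd at -1.10 ± 0.20 (adjusted p = 0.00261), Fdps at -1.45 ± 0.29 (adjusted p = 0.00561), Insig1 at -0.84 ± 0.21 (adjusted p = 0.0207) and Srebf2 at -0.67 ± 0.18 (adjusted p = 0.0352). The response differed for Scd1, at -3.04 ± 0.59 (adjusted p = 0.0067), and Fdps, at -1.59 ± 0.42 (adjusted p = 0.0437). From HSC to preGM 17 were higher and 3 lower in WT, and 16 and 3 with MLL-ENL. Shares of all tested genes called from the last exon alone are not given beside these counts. Lss and Acly had last-exon changes of 1.11 ± 0.31 (adjusted p = 0.00883) and 0.69 ± 0.21 (adjusted p = 0.0153) with MLL-ENL.

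**Figure D5:**
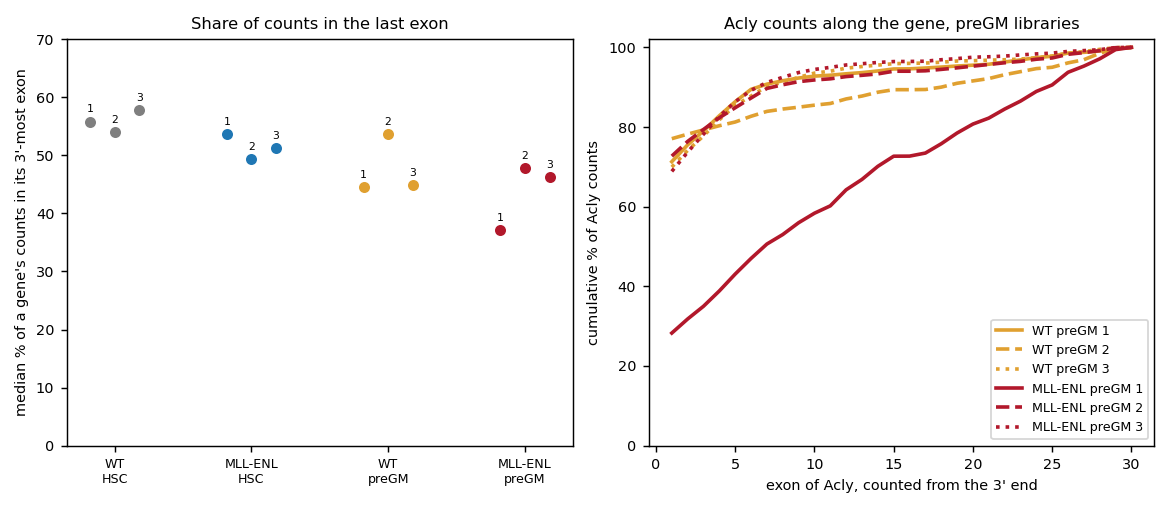
Left, the median percent of a gene's counts in its 3′-most exon for each library, with digits for the replicate number. Right, the cumulative percent of Acly counts by exon from the 3′ end in the 6 preGM libraries: 5 lines start between 69% and 77% in the last exon, and MLL-ENL preGM replicate 1 starts at 28.3%.

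Other genes of the same pathways, in 3 lists, were read beside the 30. Of 22 further genes on the sterol side, 6 were higher and 1 lower in WT preGM than in WT HSC, and 9 were higher and none lower with MLL-ENL in edgeR (lower: 0 at an unadjusted p under 0.05, 0 in DESeq2). These calls made up 31.8% of the list in WT and 40.9% with MLL-ENL. Of all tested genes 38.5% and 41.5% were called, so the list held no excess of calls. Between the strains, 4.12% of all tested genes were called in HSC and 6.77% in preGM. Tmem97, a sterol-regulated membrane protein, had 76.8, 96.4 and 77.03 CPM in WT HSC, 37.3, 40.96 and 33.6 in MLL-ENL HSC, 547, 186 and 522 in WT preGM and 271, 437 and 413 in MLL-ENL preGM. Its changes, 2.33 ± 0.36 (adjusted p = 0.000112) and 3.33 ± 0.37 (adjusted p = 6.97e-06), had the smallest adjusted p of the list in both strains, with Npc2, a lysosomal cholesterol carrier, at 1.26 ± 0.29 (adjusted p = 0.00284) and Soat1, which esterifies cholesterol, at 1.54 ± 0.37 (adjusted p = 0.00421) next in WT. By library size alone these were 0.58 (adjusted p = 0.0745) and 0.81 (0.147), no longer called. With MLL-ENL against WT none passed in HSC in edgeR (0 higher and 4 lower at an unadjusted p under 0.05, 0 and 1 in DESeq2), and in preGM Por, which passes electrons to sterol oxidases, rose by 1.32 ± 0.36 (adjusted p = 0.0381). That call was lost in 13 of 24 settings, and without MLL-ENL preGM replicate 1 the change was 0.66 (adjusted p = 0.188).

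Of 24 further genes on the fatty acid side, 8 were higher and 2 lower in WT preGM, and 10 higher and 5 lower with MLL-ENL. The share called was 41.7% in WT, near the 38.5% of all tested genes, and 62.5% with MLL-ENL, against 41.5%. Mlx, a partner of glucose-sensing transcription factors, changed by 2.01 ± 0.23 (adjusted p = 5.32e-06) in WT, and Tecr, a reductase of fatty acid elongation, by 1.54 ± 0.29 (adjusted p = 0.000716) with MLL-ENL. In MLL-ENL against WT, Fads2, a desaturase of polyunsaturated fatty acids, was the only call of this list, in HSC (in preGM 1 higher and 2 lower at an unadjusted p under 0.05 in edgeR, 0 and 1 in DESeq2). It had 7.88, 6.70 and 7.45 CPM in WT HSC, 21.1, 21.3 and 23.8 in MLL-ENL HSC, 17.3, 20.9 and 17.8 in WT preGM and 15.8, 11.9 and 13.6 in MLL-ENL preGM, and rose by 1.59 ± 0.22 (adjusted p = 0.000907) in HSC, a call kept in all 24 other settings. Like Scd1, its WT HSC libraries lay below the other 9.

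Of 13 tested genes of LXR and lipid efflux, 7 were higher and 1 lower in WT preGM, and 5 higher and 2 lower with MLL-ENL. The share called was 61.5% in WT, against 38.5% of all tested genes, and 53.8% with MLL-ENL, against 41.5%. Lpl, which frees fatty acids from lipoproteins, had 3.46, 2.27 and 5.91 CPM in WT HSC, 5.13, 6.49 and 4.84 in MLL-ENL HSC, 54.5, 47.1 and 65.1 in WT preGM and 5.74, 10.4 and 14.9 in MLL-ENL preGM. It was lower with MLL-ENL in preGM, with a change of -2.43 ± 0.36 (adjusted p = 0.000544) kept in all 22 settings that gave a value, and had a change of 0.51 ± 0.36 (adjusted p = 0.487) in HSC. Nr1h3, the gene of the LXR alpha receptor, had 9, 1 and 0 counts in WT HSC and 81, 168 and 70 in MLL-ENL HSC, a rise of 4.40 ± 0.89 (adjusted p = 0.0104) whose size depends on the few WT counts: without WT HSC replicate 1 it was 7.03 (adjusted p = 0.00524), and without MLL-ENL HSC replicate 2 it was 3.78 (adjusted p = 0.048). Apoc2, an activator of Lpl, was lower with MLL-ENL in preGM (177, 245 and 111 counts in WT and 6, 8 and 21 with MLL-ENL), with a change of -4.39 ± 0.82 (adjusted p = 0.00477). It shared 79.5% of its exon bases with another gene, so its reads are uncertain, and it was not called on leaving out replicate 2 of WT preGM, with -3.74 (adjusted p = 0.0511), while leaving out replicate 3 of MLL-ENL preGM gave -5.18 (adjusted p = 0.00865). Scarb1, a lipoprotein receptor, rose to preGM by 1.46 ± 0.28 (adjusted p = 0.000777) in WT and 1.78 ± 0.28 (adjusted p = 0.000166) with MLL-ENL, the former not called by library size alone (0.77, adjusted p = 0.0861). By library size alone the splits between cell types were 1 higher and 7 lower in WT and 2 and 2 with MLL-ENL on the sterol side, 2 and 8, and 1 and 6, on the fatty acid side, and 5 and 3, and 3 and 3, for LXR and efflux. Over all tested genes they were then 1190 and 6149 in WT, and 1218 and 5515 with MLL-ENL.

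Per kilobase of exon, the 30 genes spanned a wide range of levels. Fdps was the highest in WT preGM, at 671 CPM per kb, followed by Ebp (129) and Pmvk (129), and it was also the highest in MLL-ENL HSC (57.6) and MLL-ENL preGM (266). In WT HSC Ebp (48.4), Fdps (44.4) and Pmvk (43.6) were the highest and Scd1 (0.259) and Abca1 (0.428) the lowest. Since most counts of many genes lie near the 3′ end, a level per kilobase understates long genes such as Abca1, Acaca and Fasn. Fdps differed: in WT preGM its last exon held 3464, 1067 and 3665 counts and its other exons 33255, 7116 and 32223. Its rank per kilobase is therefore not on a like footing with genes counted mostly in the last exon.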

How the data were processed

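The authors deposited, per the file headers, exon and intron tag counts with RPKM for each library; per the submitters' processing notes the tools were TopHat2 2.0.8, Bowtie2 2.1.0, HTSeq and edgeR, and no source used here names the genome build behind the counts. Libraries came from low-input SMARTer amplification, per the labels' protocols. Transcripts were named from GENCODE M21 (GRCm38), with 95.8% of transcripts matched, and counts were summed per gene over non-overlapping exons. Tests used edgeR 4.0.16 in R 4.3.3 (quasi-likelihood, robust, TMM, minimum count 10 and total 15) over all 4 groups, with Benjamini-Hochberg adjustment over 15711 genes and a threshold of 0.05. Intervals written ± are the SE of the fit, and single-gene exact tests of 3 against 3 could not go below 0.1. The deposited RPKM values served only to derive library sizes. With these, RPKM was computed anew from the gene counts for the limma 3.58.1 alternatives. DESeq2 1.42.0 on the counts was another, and 24 alternatives were run in all. Genes named are all 30, with every library's value where called, and at most 4 called genes per other list and comparison by smallest adjusted p. The 30 genes, the lists and the 2 libraries set aside were chosen with earlier results of these data known, and the last-exon counts were added after seeing the data. The fits were tested on simulated counts with 200 genes changed 4-fold in MLL-ENL HSC and 200 in MLL-ENL preGM. Of these 71.5% and 72.0% were called, and 5.30% and 7.10% of the calls were false. A gene not called may thus still differ. Replicates are those the labels number.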

Additional observations from a re-analysis of the deposited data

Results flagged for a closer look

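The response to MLL-ENL differed between HSC and preGM, by edgeR's test of the difference itself with Benjamini-Hochberg adjustment, for 1 of the 30 genes and for 3 named genes of the other lists. Among all tested genes 3.13% had such a difference. For Scd1 the preGM minus HSC difference was -2.87 ± 0.61 (adjusted p = 0.014), lost by library size alone. For Fads2 it was -2.03 ± 0.31 (adjusted p = 0.00139), with responses of 1.59 ± 0.22 in HSC and -0.44 ± 0.21 in preGM, and this was kept in all 23 other settings. For Lpl it was -2.94 ± 0.51 (adjusted p = 0.00383), with responses of 0.51 ± 0.36 and -2.43 ± 0.36, kept in all 21 settings that gave a value. For Nr1h3 it was -4.3, or -4.30 ± 1.11 (adjusted p = 0.0462), lost in 17 of 23 settings, and it rests on 9, 1 and 0 counts in WT HSC (without WT HSC replicate 1 it was -6.92 (adjusted p = 0.0115)).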

How the results depend on the processing

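Depth limits the genes with few counts, such as Scd1 in WT HSC and Abca1 in preGM. The number of the 30 genes called between cell types, 20 in each strain, was 10 in WT and 10 with MLL-ENL by library size alone, and 10 and 12 with limma on log2(RPKM + 0.1) or log2(RPKM + 1). In HSC, MLL-ENL against WT called 2 of the 30 genes, 5 with only the 2 groups fitted, 8 without the 2 preGM libraries, 9 from the last exon without them, and 1 to 3 with 1 library left out. In preGM it called 2: 0 by library size, with only the 2 groups, with either limma fit and with the replicate block, 4 with DESeq2, 7 without the 2 libraries, 4 from the last exon, 6 from the last exon without them, and 0 to 4 with 1 library left out. The difference of responses called 1: 0 by library size, 3 with DESeq2, 2 without the filter, 2 with limma on log2(RPKM + 1), 8 without the 2 libraries, 2 from the last exon, 5 from the last exon without them, and 1 to 2 with 1 library left out. Over all genes, HSC calls numbered 647, against 1341 (DESeq2), 2508 (only the 2 groups), 1108 and 1510 (limma, 0.1 and 1), 3369 (without the 2 libraries), 2665 (last exon, without them) and 313 to 1282 (1 library left out). In preGM they numbered 1063, against 1741 (DESeq2), 618 (limma, 1) and 566 to 1345 (1 library left out), and for the difference 492, against 1058 (DESeq2), 1926 (without the 2 libraries), 1483 (last exon, without them) and 299 to 694 (1 library left out). Deviations from the group means correlated weakly between libraries of the same replicate number. The 18 same-number pairs had correlations of -0.10 to 0.10, and 0 of 12 libraries correlated best with their own number. With 3 libraries per group such correlations cannot show whether same-number libraries shared an animal or a sort, which the labels do not give. With the number as a block Fdps and Insig1 in preGM had adjusted p of 0.063 and 0.0547, Fdft1 in WT 0.0715 and Msmo1 with MLL-ENL 0.0651. Cyp51 in preGM turned from 0.01 ± 0.32 (adjusted p = 0.987) to -0.63 ± 0.18 (adjusted p = 0.0479) without the 2 libraries, and the cause was not tested.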

Other observations

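Genes of the other lists that the text has not described also differed between the cell types. Lrp1, an endocytic receptor of apolipoprotein E, was at 0.391, 0.181 and 0 CPM in WT HSC and 6.90, 8.01 and 5.09 CPM in WT preGM, a log2 change of 5.07 ± 0.65 (adjusted p = 1.85e-05) against 2.40 ± 0.54 (adjusted p = 0.0024) with MLL-ENL. Without WT HSC replicate 1 the WT change of Lrp1 was 5.98 (adjusted p = 3.76e-05). Elovl6, which elongates saturated fatty acids, had changes of 0.75 ± 0.24 (adjusted p = 0.0219) in WT and 1.15 ± 0.24 (adjusted p = 0.00162) with MLL-ENL. By library size alone neither was called, at 0.05 (adjusted p = 0.897) and 0.62 (adjusted p = 0.101), and the WT call was also lost without WT HSC replicate 1 (0.106) or 2 (0.0554). Pnpla8, a phospholipase, fell from HSC to preGM in WT, with a change of -1.21 ± 0.32 (adjusted p = 0.00694), and had -1.27 ± 0.32 (adjusted p = 0.0049) with MLL-ENL. The difference between the strains in these changes was -2.67 ± 0.83 (adjusted p = 0.101) for Lrp1, 0.40 ± 0.34 (adjusted p = 0.624) for Elovl6 and -0.05 ± 0.44 (adjusted p = 0.979) for Pnpla8.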
